A study of Rattus norvegicus with 6 samples.

Results

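Interferon response and antigen presentation genes were followed in rat endometrial epithelial organoids (rEEOs) and rat bone marrow mesenchymal stem cells (rBMSCs) by bulk RNA-seq of 3 libraries each. The 77 genes, out of 13728 in the table, were chosen by symbol: MHC genes (named RT1 in the rat), the peptide supply of class I molecules, interferon receptors, Janus kinases, STAT, IRF and SOCS genes, RNA sensors, interferon-induced effectors and the PARP genes of the same response. A further 12 rows carried such a symbol but fewer than 10 counts over the 6 libraries and were set aside. The rEEOs came from uterine glandular fragments of female Sprague-Dawley rats of 5 weeks and grew in Matrigel with a growth factor medium, while the rBMSCs were purchased, carried a red fluorescent protein and grew on dishes in their own culture medium. The rEEOs medium held growth factors, Wnt activators and inhibitors of the TGF-beta receptor and of ROCK, and sieving had removed stromal cells from the fragments. No treatment, interferon or infection is named for either culture, and no strain or age is given for the rBMSCs. The labels do not say whether the 3 samples of a group came from separate animals or cultures, so p-values measure only the spread between these samples.

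As background, interferons bind receptor chains that carry Janus kinases, which activate STAT proteins. Type I and type III interferons form a complex of STAT proteins and IRF9 that binds the interferon-stimulated response element (ISRE), and interferon gamma forms STAT dimers that bind the gamma-activated site (GAS). Target genes block viruses, and others supply the MHC class I pathway, in which the immunoproteasome cuts proteins into peptides, the TAP transporter moves these into the endoplasmic reticulum, and tapasin loads them on a heavy chain paired with beta-2-microglobulin for display to T cells. Class II molecules present peptides from outside the cell and are usually restricted to professional antigen-presenting cells, although mucosal epithelium can carry them too.

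The libraries held 14892115 to 15421501 counts in rBMSCs and 10457958 to 13883993 in rEEOs. Replicates differed more in rEEOs, with a median standard deviation over genes of 0.34 in log2(CPM + 1) against 0.088 in rBMSCs. Epithelial markers (Epcam, Cdh1 and 4 keratins) summed to between 4094 and 5031 TPM (a level per transcript length and library) in rEEOs and to at most 3.00 TPM in rBMSCs, and 8 mesenchymal markers summed to between 172 and 298 TPM in rEEOs against 35609 to 37976 TPM in rBMSCs. Nearly all of the mesenchymal sum in rEEOs was Vim (171.13, 297.49 and 227.45 TPM), and Pdgfrb and Thy1 were at 0 there. Of 21 leukocyte markers 12 were held, and they summed to 69.2, 21.1 and 17.3 TPM in rEEOs replicates 1, 2 and 3, most of it Cd14, and to between 6.43 and 8.66 TPM in rBMSCs. Outside Cd14 no leukocyte marker passed 18 counts in an rEEOs library, and Itgax and Laptm5 were at 0 there. Reads of the 3 Y-linked genes were present in every rBMSCs library, with 0 counts in every rEEOs library. Cell type, donor sex, cell source, fluorescent label, culture form and culture medium cannot be told apart in any difference below. The rBMSCs strain is not given, so donor differences in RT1 sequence and in RT1 level cannot be told apart. In bulk RNA, fewer cells of a type and less RNA per cell cannot be told apart either.

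Most of these genes were higher in rEEOs. Of the 71 with at least 10 counts in at least 3 libraries, 53 (74.6%) were higher at an adjusted p below 0.05 by edgeR's quasi-likelihood test, against 33.3% of all 10607 genes tested. Lower in rEEOs were 6 (8.45%), against 30.2% of all genes. With an absolute log2 fold change above 2 as well, 41 (57.7%) were higher, against 16.3% of all genes, and only Socs5 and Ifit2 (2.82%) were lower, against 13.3%. The counts by role below are to be read against these shares of all genes. The median log2 fold change was 2.49 over the tested members and 0.08 over all genes, where a positive value means higher in rEEOs. Scaling by library size alone moved the median of all genes to 0.46, and TPM moved it to between -0.25 and -0.22. In 62 of the 71 tested members (87.3%), against 72.8% of all genes tested, the 3 rEEOs values lay entirely above or below the 3 rBMSCs values in CPM (counts divided by the library total, scaled by the TMM method).

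**Figure D1:**
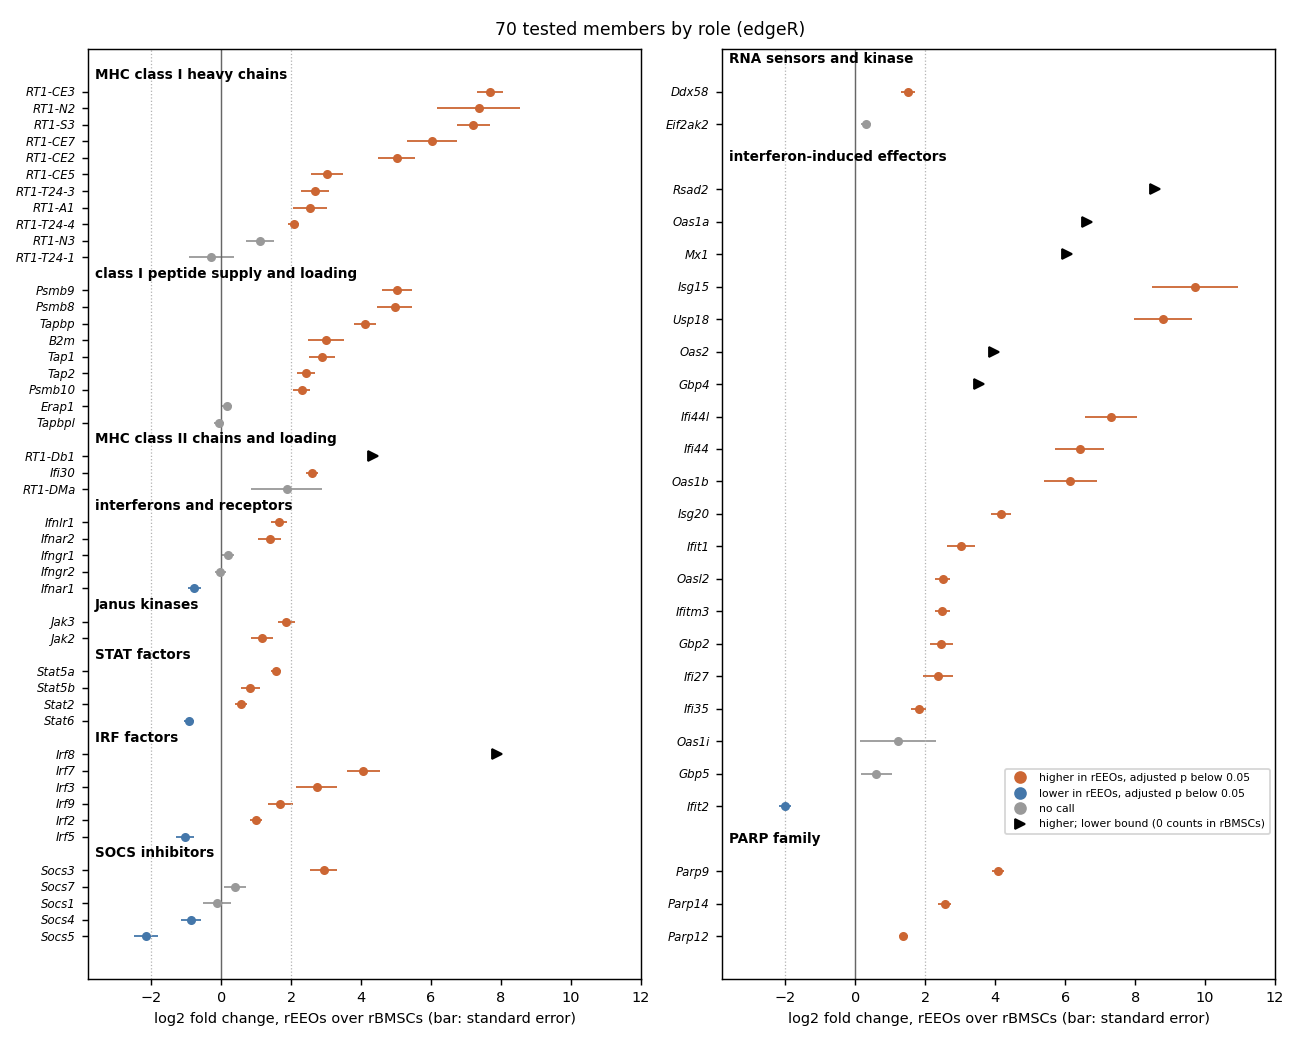
Log2 fold change of rEEOs over rBMSCs for 70 of the 71 tested members, grouped by role, with standard errors as bars and dotted lines at -2 and 2. Black triangles are lower bounds for 7 genes with 0 counts in all 3 rBMSCs libraries. Orange points (higher) fill the class I and effector groups, while blue points (lower) are 6 genes: Ifnar1, Stat6, Irf5, Socs4, Socs5 and Ifit2.

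The heavy chains of MHC class I, which hold the peptide at the cell surface, were mostly higher in rEEOs: 9 of 11 passed the test, all 9 past a log2 fold change of 2, with a group median of 3.02. Summed over the 11 genes, the level was 189.6, 187 and 174 TPM in rBMSCs and 827, 1600 and 851 TPM in rEEOs. The rEEOs sums did not overlap the rBMSCs sums, and the rEEOs library of replicate 2 stood above the other two. RSEM split reads between similar RT1 genes, and all 11 heavy chains held fractional counts, so the separate values are uncertain and the sums less so.

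RT1-A1, the classical heavy chain of the rat, had 71.1, 74.7 and 58.1 TPM in rBMSCs replicates 1, 2 and 3 and 192, 493 and 240.1 TPM in rEEOs, a log2 fold change 2.53 ± 0.49 (SE; edgeR adjusted p = 0.0044). RT1-CE5 had 53.2, 56.6 and 52.8 TPM in rBMSCs and 237, 558 and 260.1 TPM in rEEOs, with a log2 fold change of 3.02 ± 0.47 (edgeR adjusted p = 0.00171). Both were already expressed in rBMSCs, and their groups did not overlap. Without rEEOs replicate 2 the log2 fold change was 1.90 for RT1-A1, below 2, and 2.40 for RT1-CE5, and both kept their call. A second set was close to silent there. RT1-CE3 had 0.73, 0.6 and 0.89 TPM in rBMSCs and 139, 147 and 95.1 TPM in rEEOs, with a log2 fold change of 7.68 ± 0.36 (edgeR adjusted p = 1.51e-05). RT1-N2 went from 0.34, 0.31 and 0.64 TPM to 12.7, 107 and 26.9 TPM (log2 fold change 7.36 ± 1.18, edgeR adjusted p = 0.00199), and its replicate 2 library was 12.3 times replicate 1 in CPM. Without that library the log2 fold change of RT1-N2 was 5.92. RT1-S3, a nonclassical heavy chain, had 0.16, 0.55 and 0.45 TPM in rBMSCs and 47.7, 36.9 and 60.3 TPM in rEEOs (log2 fold change 7.21 ± 0.47, edgeR adjusted p = 4.61e-05). RT1-CE3, RT1-N2 and RT1-S3 were thus well expressed in every rEEOs library and close to silent in every rBMSCs library. RT1-CE7, RT1-CE2, RT1-T24-3 and RT1-T24-4 were also higher, with log2 fold changes of 6.02, 5.02, 2.68 and 2.07. Without rEEOs replicate 2, RT1-CE7 was at 5.42 and RT1-T24-4 at 1.98.

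Neither of the other two heavy chains passed the test. RT1-N3 had 15.6, 14.3 and 14.7 TPM in rBMSCs and 19.7, 39.01 and 17.8 TPM in rEEOs, a log2 fold change 1.11 ± 0.41 (SE; edgeR adjusted p = 0.0508). It passed with DESeq2 (adjusted p = 0.0197), by library size alone (0.0147), with a filter of 50 counts (0.0484) and without rEEOs replicate 1 (0.00733) or replicate 2 (0.0363). RT1-T24-1 had 26.9, 20.6 and 25.6 TPM in rBMSCs and 43.1, 4.66 and 8.92 TPM in rEEOs, so that rEEOs replicate 1 lay above and the other two below all rBMSCs libraries. Its log2 fold change was -0.29 ± 0.64 (edgeR adjusted p = 0.709), and it was -1.39 without rEEOs replicate 1 (adjusted p = 0.00399), 0.16 without rEEOs replicate 2 (adjusted p = 0.807), and 0.13 by library size alone (adjusted p = 0.874).

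Genes that make peptides and load them on class I were mostly higher in rEEOs too: 7 of 9 passed the test, all past a log2 fold change of 2, and the group median was 2.89. B2m, which encodes the light chain of every class I molecule, had 179, 185 and 175 TPM in rBMSCs and 685, 1861 and 846 TPM in rEEOs, a log2 fold change 3.00 ± 0.51 (SE; edgeR adjusted p = 0.00266). By mean TPM it ranked 115 of 13728 genes in rEEOs and 656 in rBMSCs. Its rEEOs libraries were all above its rBMSCs libraries, with replicate 2 the highest, and without that library its log2 fold change was 2.31.

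The immunoproteasome subunits replace the standard catalytic subunits of the proteasome under interferon gamma. Psmb8 had 12.9, 13.02 and 11.1 TPM in rBMSCs and 187, 444 and 268 TPM in rEEOs, a log2 fold change 4.95 ± 0.50 (SE; edgeR adjusted p = 0.000267). Psmb9 had 4.57, 5.12 and 3.75 TPM in rBMSCs and 87.7, 159 and 103 TPM in rEEOs (log2 fold change 5.03 ± 0.44, edgeR adjusted p = 0.00014). For Psmb10 the values were 31.3, 27.7 and 32.4 TPM in rBMSCs and 108, 125 and 132 TPM in rEEOs (log2 fold change 2.30 ± 0.24, edgeR adjusted p = 0.000287). No group overlapped the other for any of the 3 subunits, and Psmb10 had both the highest level in rBMSCs and the smallest fold change.

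Tap1 and Tap2 form the peptide transporter. Tap1 had 8.4, 6.41 and 6.81 TPM in rBMSCs and 30.8, 55.8 and 41.8 TPM in rEEOs, a log2 fold change 2.89 ± 0.37 (SE; edgeR adjusted p = 0.000716), and Tap2 had 11.1, 11.1 and 9.87 TPM in rBMSCs and 41.7, 53.6 and 45.8 TPM in rEEOs (log2 fold change 2.42 ± 0.25, edgeR adjusted p = 0.000294). Tapbp, which encodes tapasin, had 18.5, 17.2 and 18.3 TPM in rBMSCs and 207, 298 and 249.1 TPM in rEEOs (log2 fold change 4.11 ± 0.30, edgeR adjusted p = 7.06e-05). All 3 genes were higher in every rEEOs library than in any rBMSCs library.

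The remaining 2 members of the group did not pass. Erap1, the peptidase that trims peptides in the endoplasmic reticulum, had 64.2, 62.6 and 66.1 TPM in rBMSCs and 64.4, 60.4 and 51.7 TPM in rEEOs, and its log2 fold change was 0.15 ± 0.15 (edgeR adjusted p = 0.398), with a negative sign on the TPM scale and an adjusted p of 0.0449 without rEEOs replicate 1 and of 0.0134 by library size alone. Tapbpl, the tapasin-related protein that edits peptides, had 53.4, 54.2 and 52.05 TPM in rBMSCs and 45.4, 42.1 and 40.5 TPM in rEEOs and a log2 fold change of -0.06 ± 0.15 (edgeR adjusted p = 0.754), positive by library size alone and called lower by limma on log2(TPM + 1) and log2(TPM + 0.1) (adjusted p = 0.0444 and 0.046).

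**Figure D2:**
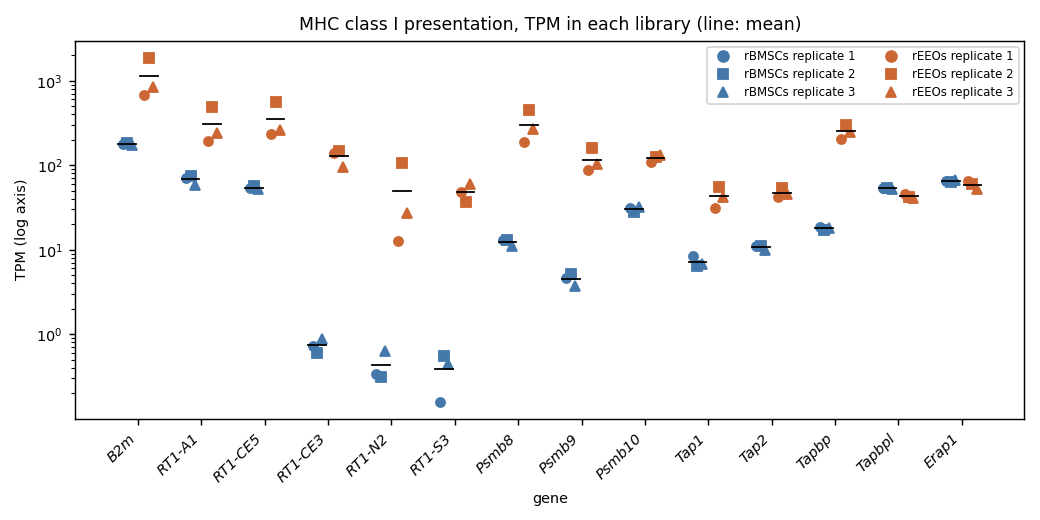
TPM on a log axis for 14 class I presentation genes in each of the 6 libraries, with blue symbols for rBMSCs, orange for rEEOs, a shape per replicate and a line at the mean. The groups are apart for every gene from B2m to Tapbp, and close for Tapbpl and Erap1. Replicate 2 (square) is the highest rEEOs library for B2m, RT1-A1, RT1-CE5, RT1-CE3, RT1-N2, Psmb8, Psmb9, Tap1, Tap2 and Tapbp.

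Promoters were read from RefSeq (GRCr8) as the 250 bases before and 50 bases after each gene's start, and 64 of the 77 members had one. The core of the ISRE, searched as GAAANNGAA on both strands, occurred in 26 of these 64 (40.6%), against 9.5% of all 27457 promoters and 7.27% of the 8374 promoters of genes tested. Many members were chosen by symbols of interferon-induced genes, so a high share was likely from the choice alone and is no result about the cell types. TTCNNNGAA, the GAS motif, which reads the same on both strands, occurred in 10 members (15.6%), against 8.68% of all promoters. A match of these letters is a description of the sequence and not a binding site, and elements of another spelling are not counted. RT1-A1, RT1-CE3 and RT1-CE5, for example, held gtttcacttct before the start and have no match. A promoter without a match can therefore still hold such an element. In the peptide supply group 6 of 8 promoters held the ISRE core and 1 held the GAS motif, whereas 2 of 10 class I heavy chains held the ISRE core. The 250 bases before the start are printed for 4 of these 6 genes, the transporter, tapasin and the class I light chain, to show where the match lies, in the direction of the gene (5′ to 3′), with the ISRE core in capitals, shown as its reverse complement where it lies on the opposite strand.
Tap1 (chr20:4668544-4668793, minus strand): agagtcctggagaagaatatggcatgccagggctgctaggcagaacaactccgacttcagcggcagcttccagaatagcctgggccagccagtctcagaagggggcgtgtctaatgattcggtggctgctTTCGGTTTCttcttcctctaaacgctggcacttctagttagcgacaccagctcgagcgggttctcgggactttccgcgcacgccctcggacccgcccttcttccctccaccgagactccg
Tap2 (chr20:4652297-4652546, minus strand): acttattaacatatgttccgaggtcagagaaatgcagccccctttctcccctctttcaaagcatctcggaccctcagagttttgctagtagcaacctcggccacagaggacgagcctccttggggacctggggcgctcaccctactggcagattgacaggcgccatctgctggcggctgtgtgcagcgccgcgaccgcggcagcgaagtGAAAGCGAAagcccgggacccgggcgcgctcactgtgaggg
Tapbp (chr20:4967878-4968127, minus strand): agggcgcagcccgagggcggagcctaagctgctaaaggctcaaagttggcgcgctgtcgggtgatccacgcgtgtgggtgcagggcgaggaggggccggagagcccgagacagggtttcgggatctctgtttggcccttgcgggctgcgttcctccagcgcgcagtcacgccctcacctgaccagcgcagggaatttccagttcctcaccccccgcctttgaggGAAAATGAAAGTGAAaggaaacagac
B2m (chr3:129549080-129549329, plus strand): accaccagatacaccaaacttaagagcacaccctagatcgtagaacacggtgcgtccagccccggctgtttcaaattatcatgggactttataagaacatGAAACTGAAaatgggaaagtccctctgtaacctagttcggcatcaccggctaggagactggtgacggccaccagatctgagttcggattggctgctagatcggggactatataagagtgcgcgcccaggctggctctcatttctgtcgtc

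The match began 120 bases before the start in Tap1, 41 in Tap2 and 150 in B2m, and in Tapbp it was a pair of overlapping matches from 26 bases before the start. Tap1 and Psmb9 lie head to head, with 457 bases between their starts. Psmb9 held no match in its own window, and Erap1 had no promoter in the table.

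**Figure D3:**
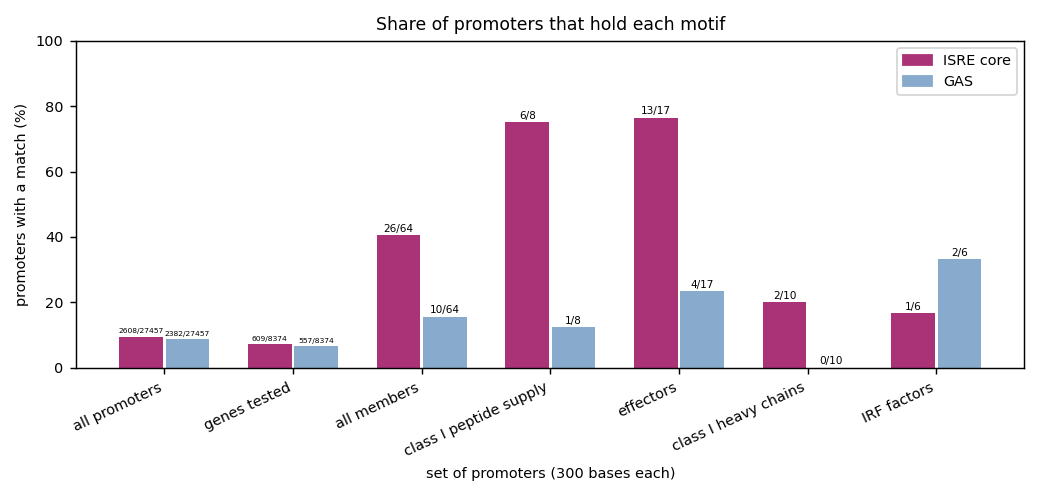
Percentage of 300-base promoters that hold the ISRE core or the GAS motif, for all promoters, promoters of genes tested, all members and 4 member groups, with the number of promoters over each bar. The ISRE core is in 75.0% of peptide supply and 76.5% of effector promoters, against 9.5% of all promoters.

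Class II genes were low but read in rEEOs. RT1-Db1, a class II beta chain, had 0 counts in all 3 rBMSCs libraries and 3.92, 6.32 and 4.47 TPM in rEEOs, at least 20.4-fold higher against a floor of 3 counts per library (edgeR adjusted p = 0.00118). Floors and intervals from counts cover counting error only. RT1-Ba, RT1-Da and RT1-Bb, the other peptide-presenting class II chains among the 77 genes, were too low for the test. Their counts in rEEOs replicates 1, 2 and 3 were 8, 63 and 30 for RT1-Ba, 6, 23 and 22 for RT1-Da and 3, 15 and 8 for RT1-Bb, all against 0 counts in rBMSCs. Against the floor RT1-Ba was at least 12.1-fold higher, RT1-Da at least 5.99-fold and RT1-Bb at least 3.08-fold. Like RT1-Db1, these 3 genes met the count rule through rEEOs alone, so they could only come out higher. RT1-Ba was at least 6.36-fold and RT1-Bb at least 1.81-fold higher without rEEOs replicate 2, where all 4 chains were at their highest. Of the leukocyte markers, Cd14 was called higher in rEEOs (log2 fold change 2.79, edgeR adjusted p = 0.00261), with 1096, 308 and 254 counts in rEEOs replicates 1, 2 and 3. Adgre1 had 18, 0 and 4 counts, Aif1 3, 8 and 1, Cd79a 8, 0 and 0 and Spi1 0, 2 and 0, each against 0 counts in rBMSCs. Itgax had 0 counts in rEEOs and was called lower (log2 fold change -9.04, edgeR adjusted p = 0.000311), and Laptm5 was at 0 there too. Cd53 had 2, 0 and 0 counts in rEEOs, Flt3 1, 0 and 0 and Cd2 0, 1 and 0. Csf1r had 2, 0 and 2 counts there and Fcer1g 0, 1 and 4, and none of these genes passed 6 counts in a rBMSCs library. The highest rEEOs library thus differed between the markers. The part of leukocytes in the class II reads was not tested.

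Ifi30, the lysosomal reductase that prepares antigens for class II and is itself induced by interferon gamma, was more abundant, with 27.4, 29.9 and 27.3 TPM in rBMSCs and 169.8, 144 and 115 TPM in rEEOs (log2 fold change 2.60 ± 0.16, edgeR adjusted p = 3.86e-05). The groups did not overlap. RT1-DMa, part of the factor that exchanges peptides on class II, had 48, 53 and 0 counts in rBMSCs and 161.5, 103.3 and 105 counts in rEEOs, and RSEM gave it fractional counts in 3 libraries. It did not pass (log2 fold change 1.88 ± 1.01, edgeR adjusted p = 0.146), and without rBMSCs replicate 3, the library at 0, its log2 fold change was 1.30 (adjusted p = 0.015).

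Interferon receptor chains had a median log2 fold change of 0.20. Of 5 chains, 2 were higher and 1 was lower, near the 33.3% and 30.2% of all genes tested. None passed a log2 fold change of 2, and no interferon gene itself was analysed here. Ifnar1, a chain of the type I receptor, had 29.7, 27.6 and 29.8 TPM in rBMSCs and 23.2, 9.33 and 10.1 TPM in rEEOs, a log2 fold change -0.77 ± 0.19 (SE; edgeR adjusted p = 0.0115), and its call was lost by library size alone (log2 fold change -0.38, adjusted p = 0.157). Ifnar2, its partner, moved the other way, from 15.9, 17.6 and 17.2 TPM to 30.5, 49.6 and 27.3 TPM (log2 fold change 1.38 ± 0.33, edgeR adjusted p = 0.0106). The chain for type III interferons, Ifnlr1, had 2.02, 1.69 and 2.06 TPM in rBMSCs and 5.21, 3.26 and 4.94 TPM in rEEOs (log2 fold change 1.65 ± 0.23, edgeR adjusted p = 0.00103). Type III receptors are known to be concentrated on epithelium, and here the chain was higher in all 3 rEEOs libraries.

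The interferon gamma receptor chains were expressed in both cell types. Ifngr1 had 50.5, 49.9 and 51.7 TPM in rBMSCs and 48.2, 44.8 and 51.2 TPM in rEEOs (log2 fold change 0.20 ± 0.17, edgeR adjusted p = 0.333), and Ifngr2 had 29.5, 28.1 and 28.1 TPM in rBMSCs and 23.5, 22.8 and 23.7 TPM in rEEOs (log2 fold change -0.02 ± 0.17, edgeR adjusted p = 0.907). Neither passed, and the sign turned with the scaling for both: Ifngr1 was negative on the TPM scale and Ifngr2 positive by library size alone. Ifngr1 passed by library size alone (adjusted p = 0.0154) and without rEEOs replicate 1 (adjusted p = 0.00792).

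Below the receptors, both Janus kinases held and 3 of 4 STAT genes were called higher, none past a log2 fold change of 2. Jak3 had 4.42, 3.95 and 3.67 TPM in rBMSCs and 12.5, 14.6 and 10.03 TPM in rEEOs (log2 fold change 1.86 ± 0.24, edgeR adjusted p = 0.000756). Jak2, the kinase of the interferon gamma receptor, had 20.6, 16.98 and 18.5 TPM in rBMSCs and 65.8, 19.5 and 28.2 TPM in rEEOs (log2 fold change 1.17 ± 0.31, edgeR adjusted p = 0.0165), and its call was lost without rBMSCs replicate 2 or 3 (adjusted p = 0.0612 and 0.0572) and on the TPM scale (adjusted p = 0.146). In TPM most of its rEEOs mean came from replicate 1, and in CPM the 3 rEEOs libraries were at 174, 74.6 and 102.

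Stat2, the partner of IRF9 in the ISRE-binding complex, had 20.7, 22.1 and 23.6 TPM in rBMSCs and 31.4, 20.6 and 30.4 TPM in rEEOs, values that overlapped on this scale, and a log2 fold change of 0.57 ± 0.17 (edgeR adjusted p = 0.0261). Stat5a, a mediator of prolactin and cytokine signals, had 7.51, 7.27 and 8.05 TPM in rBMSCs and 25.2, 17.8 and 15.4 TPM in rEEOs (log2 fold change 1.58 ± 0.14, edgeR adjusted p = 0.00016). Its paralog Stat5b had 20.9, 19.3 and 20.8 TPM in rBMSCs and 53.7, 24.4 and 18.6 TPM in rEEOs (log2 fold change 0.84 ± 0.27, edgeR adjusted p = 0.0346), and both held fractional counts in all 6 libraries. Leaving out any rBMSCs library ended the calls of Stat2 (adjusted p up to 0.105) and Stat5b (up to 0.099), and Stat5b also lost it without rEEOs replicate 2 (0.0509). The TPM scale ended both calls too (adjusted p up to 0.287) and left Stat5a as the only STAT gene called higher. Stat6, the mediator of interleukin 4 signals, was lower, with 61.1, 58.7 and 64.97 TPM in rBMSCs and 39.4, 23.02 and 21.9 TPM in rEEOs (log2 fold change -0.92 ± 0.14, edgeR adjusted p = 0.00161). Jak1 and Tyk2 were not analysed here.

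Interferon regulatory factors (IRF) were higher in 6 of 7 tested, 4 of them past a log2 fold change of 2. Irf8, best known from myeloid cells, had 0 counts in rBMSCs and 17.9, 23.02 and 25.1 TPM in rEEOs, at least 238-fold higher (edgeR adjusted p = 0.000259). Of the myeloid markers, Cd14 was called higher, Itgax was called lower, and Adgre1, Aif1, Spi1 and Csf1r were at the low counts given above. Cd14 was highest in rEEOs replicate 1 and Irf8 in replicate 3. The part of such cells in the Irf8 reads was not tested. Irf7, the amplifier of type I interferon production, had 3.41, 3.1 and 3.79 TPM in rBMSCs and 29.5, 35.5 and 73.05 TPM in rEEOs (log2 fold change 4.07 ± 0.48, edgeR adjusted p = 0.000517). Its promoter held the ISRE core from 68 bases before the start and is printed for that reason, as above.
Irf7 (chr1:205800024-205800273, minus strand): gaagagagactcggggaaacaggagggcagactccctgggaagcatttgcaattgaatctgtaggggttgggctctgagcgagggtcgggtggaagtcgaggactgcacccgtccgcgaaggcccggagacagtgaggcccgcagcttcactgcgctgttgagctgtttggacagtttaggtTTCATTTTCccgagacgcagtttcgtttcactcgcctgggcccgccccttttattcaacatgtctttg

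Irf3, which is activated by RNA and DNA sensors, had 46.7, 50.96 and 52.3 TPM in rBMSCs and 104, 380.3 and 282 TPM in rEEOs (log2 fold change 2.73 ± 0.58, edgeR adjusted p = 0.00668). Irf9, the DNA-binding part of the ISRE complex, had 11.6, 11.01 and 11.5 TPM in rBMSCs and 20.6, 30.5 and 29.6 TPM in rEEOs (log2 fold change 1.69 ± 0.36, edgeR adjusted p = 0.00677). Irf3, Irf7 and Irf9 shared a pattern in which rEEOs replicate 1 was the lowest of the 3, still above every rBMSCs library. Irf2, a repressor of ISRE genes, had a log2 fold change of 1.01 ± 0.17 (edgeR adjusted p = 0.00259) that was not called on the TPM scale (adjusted p up to 0.0714). Irf5 was the lower one, with 9.5, 11.2 and 10.7 TPM in rBMSCs and 5.93, 4.52 and 2.66 TPM in rEEOs (log2 fold change -1.04 ± 0.26, edgeR adjusted p = 0.0133). Its call was lost without rBMSCs replicate 2 or 3 (adjusted p = 0.0552 and 0.051) and by library size alone (adjusted p = 0.0656). Irf4, a lymphocyte factor, had 7, 2 and 5 counts in rEEOs and 0 in rBMSCs and was not tested.

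Of 5 genes for SOCS proteins, which switch off Janus kinases, 1 was higher, 2 were lower and 2 did not pass. Over all genes tested 33.3% were higher and 30.2% lower, so with 5 genes these counts are no result about the group. Socs3, induced by STAT3 and interferon signals, had 9.77, 8.77 and 10.8 TPM in rBMSCs and 34.4, 52.4 and 69.6 TPM in rEEOs (log2 fold change 2.93 ± 0.38, edgeR adjusted p = 0.000793). Socs5 had 34.1, 31.2 and 34.6 TPM in rBMSCs and 12.5, 3.79 and 4.14 TPM in rEEOs (log2 fold change -2.15 ± 0.35, edgeR adjusted p = 0.00198). Both groups were apart for both genes, in opposite directions. The adjusted p of Socs5 stayed below 0.05 without any 1 library, but the log2 fold change of Socs5 was -1.92 without rEEOs replicate 2 and -1.96 without rEEOs replicate 3. Socs1, the main inhibitor of interferon gamma signals, was at 2.82, 2.54 and 3.16 TPM in rBMSCs and 1.45, 2.61 and 2.17 TPM in rEEOs (log2 fold change -0.13 ± 0.40, edgeR adjusted p = 0.792), and its sign turned by library size alone. Socs4 had a log2 fold change of -0.86 ± 0.28 (edgeR adjusted p = 0.034), a call lost without any 1 library other than rEEOs replicate 1 and by library size alone (adjusted p up to 0.205). Socs7 did not pass (log2 fold change 0.40 ± 0.32, edgeR adjusted p = 0.304).

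Effectors, the antiviral and other products of interferon-stimulated genes, were the most numerous group: 17 of 20 tested were higher, 16 of them past a log2 fold change of 2, and 1 was lower. Their median log2 fold change was 5.16, or 3.76 with the 5 genes that had 0 counts in rBMSCs set at their lower bounds. Several were close to silent in rBMSCs. Isg15, a ubiquitin-like modifier, had 1, 0 and 1 counts in rBMSCs and 198, 438 and 1197 counts in rEEOs (44.95, 95.6 and 263 TPM), a ratio of 914 with a counting interval of 253 to 7560 (edgeR adjusted p = 0.00074). The ratio of Isg15 was 454 without rEEOs replicate 3, 603 without rBMSCs replicate 2 and 1389 without rEEOs replicate 1. Usp18, the protease that removes Isg15 from proteins and dampens the type I receptor, had 0, 0.07 and 0 TPM in rBMSCs and 8.97, 8.52 and 18.01 TPM in rEEOs, a ratio of 581 with a counting interval of 104 to 23000 (edgeR adjusted p = 0.0002). It was 385 without rBMSCs replicate 1, and without rBMSCs replicate 2, which held its only count there, Usp18 was at least 65.0-fold higher. Rsad2, the radical SAM enzyme viperin, had 0 counts in rBMSCs and 6.58, 19.6 and 51.3 TPM in rEEOs, at least 383-fold higher (edgeR adjusted p = 0.00456), and at least 191-fold without rEEOs replicate 3. In Isg15, Usp18 and Rsad2 alike, rEEOs replicate 3 stood above the other two libraries.

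Mx1, the dynamin-like GTPase that blocks viral nucleocapsids, had 0 counts in rBMSCs and 6.23, 5.04 and 5.39 TPM in rEEOs, at least 66.3-fold higher (edgeR adjusted p = 0.000107), and its 3 rEEOs libraries were close. Among the oligoadenylate synthetases, which make the activator of RNase L, Oas1a had 0 counts in rBMSCs and 14.5, 20.3 and 24.1 TPM in rEEOs, at least 99.5-fold higher (edgeR adjusted p = 0.000484). Oas2, also at 0 in rBMSCs, was at least 15.7-fold higher, Oas1b had a log2 fold change of 6.14 ± 0.76 and Oasl2 one of 2.50 ± 0.21. Oas1i was the exception, with 0.63, 0.59 and 0.8 TPM in rBMSCs and 3.37, 1.01 and 0 TPM in rEEOs (edgeR adjusted p = 0.354), and without rEEOs replicate 3, where it was at 0, its log2 fold change was 1.78 (adjusted p = 0.0261). Reads of near-identical Oas1 genes could be shared, and Oas1a and Oas1i held fractional counts.

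Ifi44 had 0.38, 0.3 and 0.38 TPM in rBMSCs and 12.8, 20.5 and 39.2 TPM in rEEOs (log2 fold change 6.42 ± 0.69, edgeR adjusted p = 0.000357), with a log2 fold change of 5.797 without rEEOs replicate 3. Its neighbour Ifi44l had 0, 1 and 1 counts against 77, 126 and 154, a ratio of 178 with a counting interval of 48.9 to 1480 (edgeR adjusted p = 0.000274), and a ratio of 118 without rBMSCs replicate 1. Isg20, an RNA exonuclease, rose from 3.97, 5.13 and 4.09 TPM to 62.3, 58.7 and 74.03 TPM (log2 fold change 4.18 ± 0.28, edgeR adjusted p = 5.22e-05). The most abundant effectors were expressed in both cell types. Ifitm3, a membrane protein that restricts virus entry, had 353, 385 and 319 TPM in rBMSCs and 1719.8, 1224 and 1861 TPM in rEEOs (log2 fold change 2.49 ± 0.22, edgeR adjusted p = 0.000148), and Ifi27 had 219, 222 and 215 TPM in rBMSCs and 504, 1015 and 1104 TPM in rEEOs (log2 fold change 2.37 ± 0.43, edgeR adjusted p = 0.00327). In rEEOs, Ifitm3 ranked 92 and Ifi27 ranked 149 of 13728 genes by mean TPM. Among guanylate-binding proteins, Gbp2 had a log2 fold change of 2.46 ± 0.32 (edgeR adjusted p = 0.000828), Gbp4 was at 0 in rBMSCs and at least 11.7-fold higher (edgeR adjusted p = 0.00113), and Gbp5 did not pass (adjusted p = 0.269).

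Ifit genes, whose products bind viral RNA ends, went both ways. Ifit1 was low in both cell types, at 0.05, 0.1 and 0.11 TPM in rBMSCs and 0.71, 0.58 and 0.62 TPM in rEEOs (log2 fold change 3.02 ± 0.40, edgeR adjusted p = 0.000878). Ifit2 was the only effector called lower, with 34.7, 31.97 and 35.4 TPM in rBMSCs and 7.58, 5.62 and 8.05 TPM in rEEOs (log2 fold change -2.01 ± 0.18, edgeR adjusted p = 0.000152). Its groups were well apart, and its adjusted p stayed below 0.05 without any 1 library and under every other alternative. Its log2 fold change sat at the threshold of -2 and was between -2.26 and -1.63 over those alternatives. Ifi35 was higher by 1.81 ± 0.21 in log2 fold change. Ifitm10 (9, 9 and 1 counts in rEEOs, 0 in rBMSCs) and Ifitm5 (at most 8 counts in a library) were not tested.

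**Figure D4:**
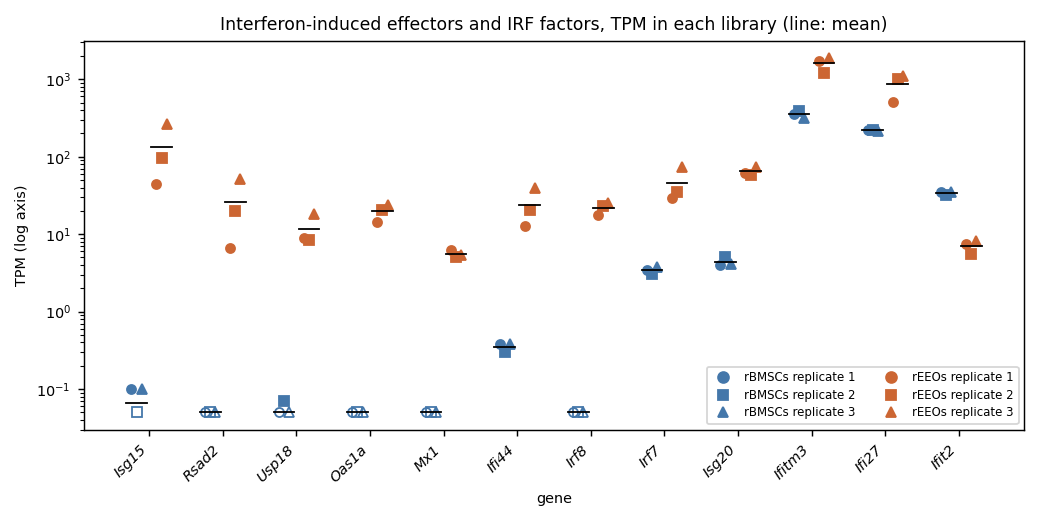
TPM on a log axis for 9 effectors and 2 IRF factors with Ifit2 at the right, in each of the 6 libraries; open symbols at the bottom are libraries at 0, drawn at the foot of the axis, and lines mark means. Rsad2, Oas1a, Mx1 and Irf8 are at 0 in every rBMSCs library, and replicate 3 (triangle) is the highest rEEOs library for Isg15, Rsad2, Usp18, Ifi44 and Irf7. Ifit2 is the one gene with rBMSCs above rEEOs.

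Of 17 effector promoters, 13 (76.5%) held the ISRE core and 4 (23.5%) the GAS motif. Rsad2, Oas1a and Ifi44l are printed as effectors at 0 to 2 counts over the rBMSCs libraries with a match before the start, capitals as above; Isg15, Usp18 and Ifit2 had no promoter in the table.
Rsad2 (chr6:48788121-48788370, minus strand): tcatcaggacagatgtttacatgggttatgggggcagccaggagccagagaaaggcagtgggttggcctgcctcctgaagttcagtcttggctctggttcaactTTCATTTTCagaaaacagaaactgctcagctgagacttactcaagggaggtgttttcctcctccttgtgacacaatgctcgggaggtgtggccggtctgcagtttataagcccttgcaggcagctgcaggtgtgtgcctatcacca
Oas1a (chr12:41330216-41330465, plus strand): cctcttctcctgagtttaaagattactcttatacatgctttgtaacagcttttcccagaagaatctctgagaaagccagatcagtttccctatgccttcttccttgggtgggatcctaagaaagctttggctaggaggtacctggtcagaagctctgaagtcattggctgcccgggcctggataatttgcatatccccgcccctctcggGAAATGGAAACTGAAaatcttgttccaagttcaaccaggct
Ifi44l (chr2:243328473-243328722, plus strand): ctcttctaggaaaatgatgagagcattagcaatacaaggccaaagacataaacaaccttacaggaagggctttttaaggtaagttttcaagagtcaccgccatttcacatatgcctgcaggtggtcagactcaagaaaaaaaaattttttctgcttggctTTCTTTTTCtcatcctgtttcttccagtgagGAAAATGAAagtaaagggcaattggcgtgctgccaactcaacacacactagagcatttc

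The match began 146 bases before the start in Rsad2, 41 in Oas1a, where a pair of matches overlapped, and 90 and 59 in Ifi44l. The promoter of Mx1, which was at 0 in rBMSCs too, held no match in this window. Over the members called higher, 21 of 44 promoters (47.7%) held the ISRE core, and over the tested members not called higher 5 of 14 (35.7%) did, Gbp5, Oas1i, Socs1, RT1-N3 and Eif2ak2.

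All 3 PARP members were higher. Parp9 had 4.41, 4.89 and 5.24 TPM in rBMSCs and 74.4, 66.6 and 66.8 TPM in rEEOs (log2 fold change 4.09 ± 0.17, edgeR adjusted p = 1.1e-05), Parp14 had a log2 fold change of 2.56 ± 0.18 and Parp12 one of 1.38 ± 0.13. Parp9 works in a complex with the ubiquitin ligase Dtx3l, which is no member and was higher too (log2 fold change 4.27, edgeR adjusted p = 2.22e-05). Of the RNA sensors, Ddx58, which encodes RIG-I, had 2.28, 2.49 and 2.19 TPM in rBMSCs and 7.8, 4 and 5.31 TPM in rEEOs (log2 fold change 1.50 ± 0.19, edgeR adjusted p = 0.000779). Eif2ak2, the RNA-activated kinase PKR, did not pass, with 19.1, 17.6 and 19.01 TPM in rBMSCs and 23.9, 15.03 and 19.8 TPM in rEEOs (log2 fold change 0.31 ± 0.13, edgeR adjusted p = 0.0798); it was called higher without rEEOs replicate 1 or 2 (adjusted p = 0.0402 and 0.0307) and by library size alone (adjusted p = 0.00502).

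Within rEEOs, the class I genes and the effectors differed in which library was highest, a comparison chosen after the values were seen. In TMM-scaled CPM, the highest rEEOs library was replicate 2 for 9 of 9 peptide supply genes and 8 of 11 heavy chains, against 34.6% of all genes whose rEEOs mean was 1 CPM or more. For 17 of 20 effectors it was replicate 3, against 22.9% of all such genes. On the TPM scale the counts were 6 of 9 and 7 of 11 for replicate 2 (18.2% of all genes) and 15 of 20 for replicate 3 (14.9%). In replicate 2 the CPM of B2m was 3.94 times that of replicate 1, of RT1-A1 3.75 times and of Psmb8 3.47 times. In replicate 3 the CPM of Rsad2 was 10.6 times that of replicate 1, of Isg15 8.28 times and of Ifi44 4.54 times. The median ratio over all genes was 1.00 in both cases. Other effectors differed less, with ratios of replicate 3 to replicate 1 of 1.16 for Gbp2, 1.18 for Mx1, 1.20 for Ifit1 and 1.42 for Oas2. With 1 library per replicate these differences have no test.

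**Figure D5:**
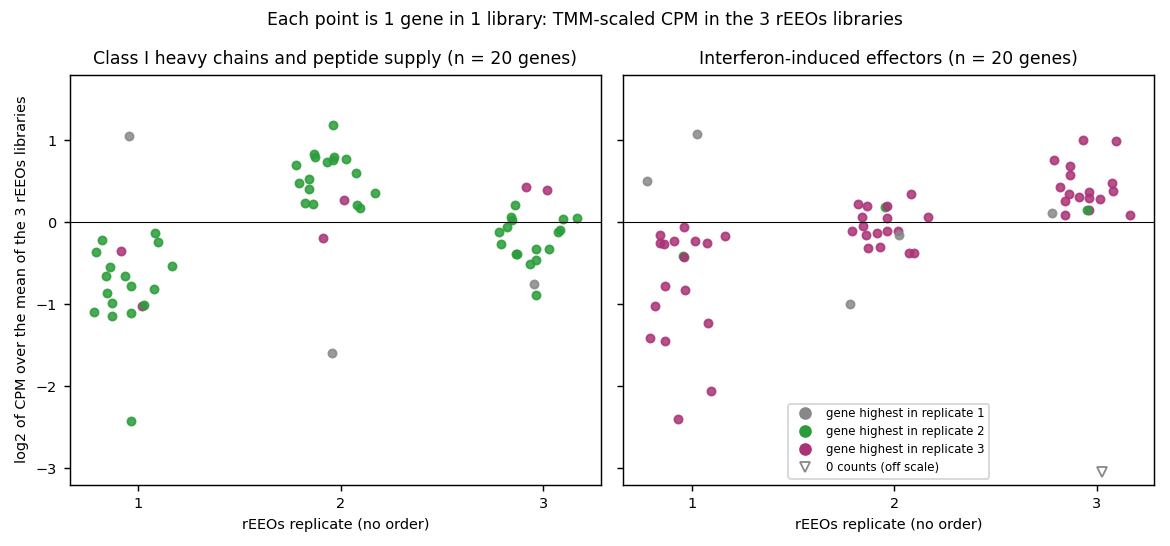
Log2 of each gene's TMM-scaled CPM in 1 rEEOs library over its mean in the 3 rEEOs libraries, for 20 class I genes (left) and 20 effectors (right), each point a gene and each colour the replicate where that gene is highest. Class I genes gather above the line in replicate 2 and effectors in replicate 3, while most of both lie below it in replicate 1. The open triangle is Oas1i at 0 counts.

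Genes of the same pathways outside the symbols chosen were counted from lists written with earlier results of these data known. Over all genes tested, 33.3% were higher in rEEOs, 30.2% were lower and 16.3% were higher past a log2 fold change of 2. Of 25 other interferon-induced genes tested, 19 were higher, 12 of them past a log2 fold change of 2, and 1 was lower. Lgals9, a galectin, had 0, 0 and 1 counts in rBMSCs and 911, 861 and 1327 in rEEOs (edgeR adjusted p = 2.49e-05), Cmpk2, a nucleotide kinase beside Rsad2 in the genome, had 1, 0 and 1 counts against 515, 428 and 613 (edgeR adjusted p = 2.12e-05), and Herc6, a ligase of the Isg15 pathway, had 1, 1 and 2 counts against 244, 384 and 435 (edgeR adjusted p = 6.59e-05). These 3 genes were thus near 0 in rBMSCs, as Isg15 and Rsad2 were. Of 9 nucleic acid sensing adaptors tested, 5 were higher and none lower, led by Tmem173, which encodes STING (log2 fold change 3.95, edgeR adjusted p = 0.0001) and Tlr3 (log2 fold change 2.19, edgeR adjusted p = 0.000726). Of 8 genes of class II control and processing, 5 were higher and 1 lower, and Cd83, which keeps class II at the surface, had a log2 fold change of 5.34 (edgeR adjusted p = 0.00131). Of 5 general chaperones and helpers of class I assembly, 2 were higher and none past a log2 fold change of 2. Of 11 regulators of Janus kinase signals, 4 were higher and 2 lower, with the phosphatase Ptpn6 at a log2 fold change of 6.36 (edgeR adjusted p = 1.28e-05). The shares higher among the class I helpers and the Janus kinase regulators were near that of all genes, and these lists are small.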

How the data were processed

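Poly(A)-enriched RNA from 3 rEEOs and 3 rBMSCs samples was sequenced, trimmed with Trim Galore and aligned with Bowtie2 2.2.5 to Rnor_6.0, per the submitters' processing notes, and quantified with RSEM per the study's methods. The deposited table, made by the authors, gives expected counts (estimated counts, not normalized), TPM and FPKM for each library. FPKM and the authors' group averages were not used. The copy held 13728 rows, whose TPM summed to between 81.3% and 82.7% of a full library, and its last row was cut short. Genes outside it, among them Ciita, Nlrc5 and Cd74, were not analysed here.

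A single member is counted but not reported here by name. Members were found by symbol, and the members and lists were chosen with earlier results of these data known. Roles were assigned by symbol, and in each role the most abundant, the most and least changed, and a list of fixed names were described. Expected counts were rounded, and the 10607 genes that reached 10 counts in 3 or more libraries were tested with edgeR 4.0.16 (TMM factors 0.866 to 0.885 in rBMSCs and 1.097 to 1.196 in rEEOs, glmQLFit, glmQLFTest) in R 4.3.3 on a model of cell type alone, with p-values adjusted over the whole table (Benjamini-Hochberg). Simulated counts with 200 changed genes (log2 fold change 3) were put through the same steps as a check. There edgeR recovered 191 with 9 false calls, and DESeq2 recovered 197 with 69 false calls, so calls by DESeq2 alone were given less weight. The simulated spread of a gene was estimated by edgeR and was the same in both cell types. In the data rEEOs replicates differed more than rBMSCs replicates, so these error rates may not hold there. Standard errors are the log2 fold change over the square root of F. A fold against 0 counts is a lower bound against 3 counts in each rBMSCs library (0.22 to 0.233 CPM), and ratios over 1 to 3 counts carry exact 95% intervals. Members at 0 counts in all 3 rBMSCs libraries met the count rules through rEEOs alone, so they could only come out higher. Libraries of 10457958 to 15421501 counts therefore leave genes near that level undecided. Alternatives were DESeq2 1.42.0 (the tool named in the study's methods), DESeq2 size factors, library size alone, filters of 1 or 50 counts, limma 3.58.1 on TPM in log2 with a pseudocount of 1 or 0.1 (minimum of 1 TPM in 3 libraries), a replicate block, each library left out (bounds and ratios too, added after the values were seen), and an absolute log2 fold change above 1. Counts by role under each were added after the values were seen. All 77 members matched RefSeq by gene ID, with Ddx58 under another symbol. Figures were drawn with matplotlib 3.10.9, and tables were handled with scipy 1.17.1, numpy 2.4.6 and pandas 2.3.3 under Python 3.11.15.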

Additional observations from a re-analysis of the deposited data

How the results depend on the processing

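Of the 71 tested members, 53 kept their direction and their side of the threshold under every alternative run on them, and 18 changed under at least 1. The filter of 50 counts held 64 members and limma 67, so the lowest members have no value there. The count of members called higher (53) was between 47 and 58 over the alternatives, and the count past the fold threshold (41) was between 33 and 51. The median log2 fold change of members was between 1.96 and 2.86. The count called lower (6) was 3 by library size alone. The count lower past the fold threshold (2) was 0 by library size alone, 1 with a filter of 50 counts, and between 0 and 2 with 1 library left out. Signs turned for genes that had not passed. By library size alone the log2 fold change was 0.319 for Tapbpl, 0.35 for Ifngr2, 0.13 for RT1-T24-1 and 0.237 for Socs1. With a filter of 50 counts it was 0.006 for Ifngr2. By limma on log2(TPM + 1) and log2(TPM + 0.1) it was -0.131 and -0.133 for Erap1 and -0.077 and -0.078 for Ifngr1. With 1 library left out it was between -0.123 and 0.075 for Tapbpl, between -0.094 and 0.14 for Ifngr2, between -1.39 and 0.156 for RT1-T24-1, between -0.003 and 0.651 for Socs7 and between -0.41 and 0.211 for Socs1. By role, the count called higher was between 9 and 10 for class I heavy chains, 7 and 8 for peptide supply and 14 and 18 for effectors. With the replicate number as a block (replicate block), 53 members were called higher and 6 lower. Same-numbered libraries had deviations correlated at 0.17, 0.193 and -0.175, so the numbers were not taken to pair the samples. The causes of these changes were not tested. Depth limits RT1-Ba, RT1-Da, RT1-Bb, Irf4, Ifitm5 and Ifitm10, which had too few counts for the test, and shared reads limit the separate RT1 values.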
